A study of Homo sapiens with 87 samples.

Results

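The BCL7A knockout clone was compared with wild-type cells by RNA sequencing in HAP1. This human line came from a chronic myeloid leukaemia and carries close to a single set of chromosomes. The knockout group was 3 libraries of 1 clone, numbered 2434-10, and the wild-type group was 3 libraries of a line numbered C631, so 6 of the 87 libraries of the series and 6 of the 75 in its knockout table entered the main comparison. The members were chosen by their labels alone: knockout of BCL7A, or wild type. All groups were grown in the same medium with fetal bovine serum, and no treatment is given for them. The labels do not say how the gene was disrupted or whether the replicates came from separate cultures. The p-values measure the spread between libraries within groups, estimated over all 75 libraries of the knockout table, and this spread may be technical. The effect of the lost gene cannot be told apart from other differences of this 1 clone.

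BCL7A is a small subunit of the BAF (SWI/SNF) complexes, which use ATP to move and evict nucleosomes and so open enhancers and promoters. It belongs to a family with BCL7B and BCL7C, and its gene was first found at a chromosome rearrangement in a B-cell lymphoma line. Other knockouts of the same table served as further references: BCL7B (clone 4278-8), BCL11A (2426-10) and BCL11B (2432-10), whose clone numbers are nearest, each with 3 libraries, and the whole set of 23 other knockout clones.

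The knockout libraries held 21823823, 20774076 and 19137649 counts, and the wild-type libraries 17847158, 22243858 and 22124825. Libraries of the same group differed by more than counting noise, so none was the same library sequenced again. Levels are given in CPM (counts scaled to library size and composition), and a gene was called where the edgeR quasi-likelihood test gave a Benjamini-Hochberg adjusted p under 0.05 and the log2 fold change was at least 1 in size. Against wild type, 572 of 16159 genes tested were called, or 3.54%: 368 were higher in the knockout (2.28%) and 204 lower (1.26%). This count was the 15th highest among the 24 knockout clones, and the median log2 fold change over all genes tested was -0.007. In these bulk libraries, fewer cells with a transcript and less of it per cell cannot be told apart.

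The targeted gene was measured first. BCL7A mRNA stood at 56.6, 50.5 and 46.9 CPM in knockout libraries, against 56.7, 51.8 and 59.4 CPM in wild type. The groups overlapped, and the log2 fold change was -0.12 (SE 0.09, edgeR adjusted p = 0.486). The gene-level count does not show the edited site, so the mRNA level neither checks nor contradicts the label. The paralog BCL7B averaged 13.3 ± 1.5 CPM in the knockout and 14.0 ± 1.1 CPM in wild type (SD, n = 3 each), and BCL7C averaged 33.9 ± 1.4 CPM in the knockout and 33.8 ± 2.1 CPM in wild type. Neither differed detectably (adjusted p = 0.878 and 0.994 by edgeR).

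Among 30 BAF subunits tested, 1 was called, and the list's median log2 fold change was -0.03. This was BCL11B, a zinc finger factor linked to BAF complexes, with 1.68, 1.99 and 1.49 CPM in the knockout, against 5.93, 4.87 and 3.56 CPM in wild type. Its libraries did not overlap (log2 fold change -1.47, SE 0.22, edgeR adjusted p = 8.28e-07). It was also lower against the mean of the other 23 knockout clones (-1.05, adjusted p = 6.58e-06 by edgeR).

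The greatest losses of mRNA left genes near zero. ATAD1, an ATPase that pulls misplaced tail-anchored proteins from the mitochondrial membrane, had 4, 1 and 3 counts in the knockout, against 911, 1195 and 980 in wild type (log2 fold change -8.53). PAPSS2, which makes the sulfate donor for sulfation, had 6, 7 and 6 counts in the knockout and 363, 466 and 282 in wild type (-5.86). For both genes every knockout library was far below every wild-type library. The lowest value in the table was 1 in every library, so values of 1 to 3 counts stand near zero. DNA was not measured here, so loss of a gene and its silencing cannot be told apart.

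Around BCL7A itself, 1 of the 20 nearest tested genes was called, beside 3.54% of all genes tested, and their median log2 fold change was -0.03. Gene order was taken from RefSeq, which gave a chromosome for 92.0% of genes tested. Medians by chromosome lay between -0.036 on chromosome 13 and 0.009 on chromosome 19.

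**Figure D1:**
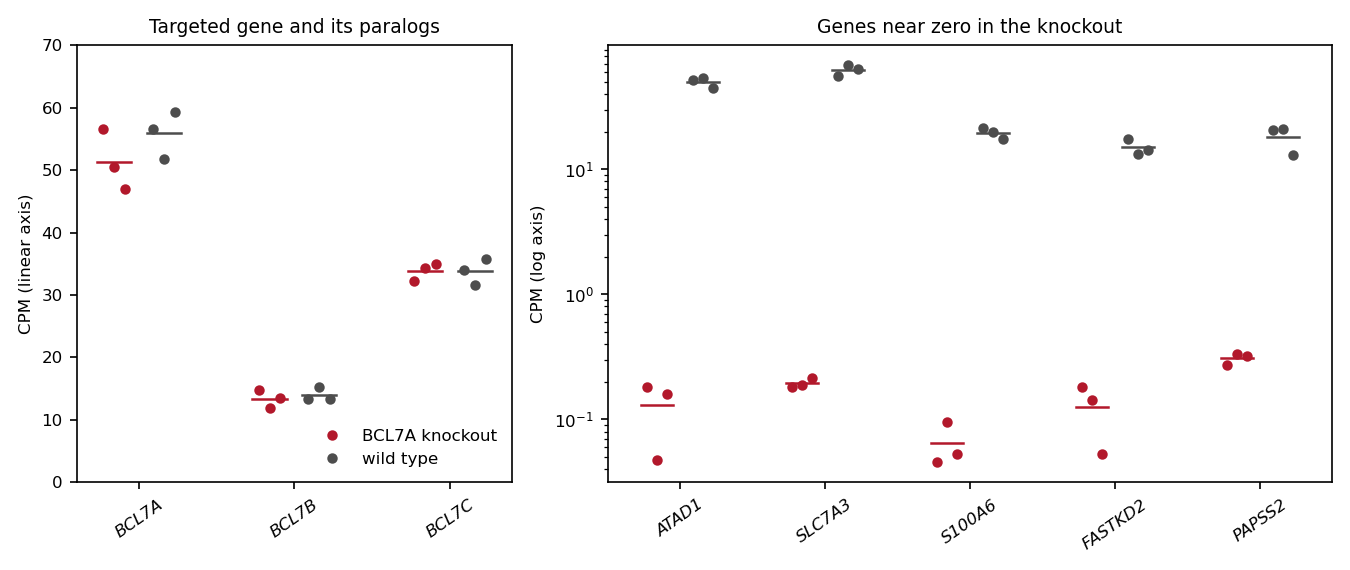
Left, level of BCL7A, BCL7B and BCL7C in each library (CPM, linear axis); right, level of ATAD1, SLC7A3, S100A6, FASTKD2 and PAPSS2 (CPM, log axis), with BCL7A knockout in red left of wild type in grey, points as libraries and lines as means of 3. The 3 BCL7 genes have similar levels in both groups, while the 5 genes at right are lower in all 3 knockout libraries than in any wild-type library.

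The same loss was seen in other clones of the table. ATAD1 mRNA stayed under 1 CPM in every library of 7 groups (knockouts of BCL7A, BCL11A, BCL11B, PHF10, SMARCC1, SMARCD1 and SMARCD3), with library values of 0.047 to 0.282 CPM. In the other 18 groups, wild type and the BCL7B knockout among them, libraries lay between 36.6 and 67.2 CPM, so nothing fell in between. In those 7 groups PAPSS2 spanned 0.191 to 0.925 CPM, against 12.9 to 36.8 CPM elsewhere. SLC7A3, an X-linked transporter of cationic amino acids, split the table the same way, with 0.094 to 0.368 CPM in the 7 groups and 35.5 to 230.7 CPM in the others. The collagen gene COL11A1 went the other way: its group means were 128.5 to 248.2 CPM in the 7 groups, 0.080 to 1.26 CPM in the 17 other knockouts and 20.4 CPM in wild type. Since these losses came with knockouts of 7 different genes, changes in the BCL7A clone that follow BCL7A and those that follow these losses cannot be told apart in the comparison with wild type. The test against BCL11A and BCL11B, whose clones lack ATAD1 mRNA too, is therefore given beside the results. It sets the BCL7A libraries against the mean of both clones, so a call can rest on 1 of them.

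**Figure D2:**
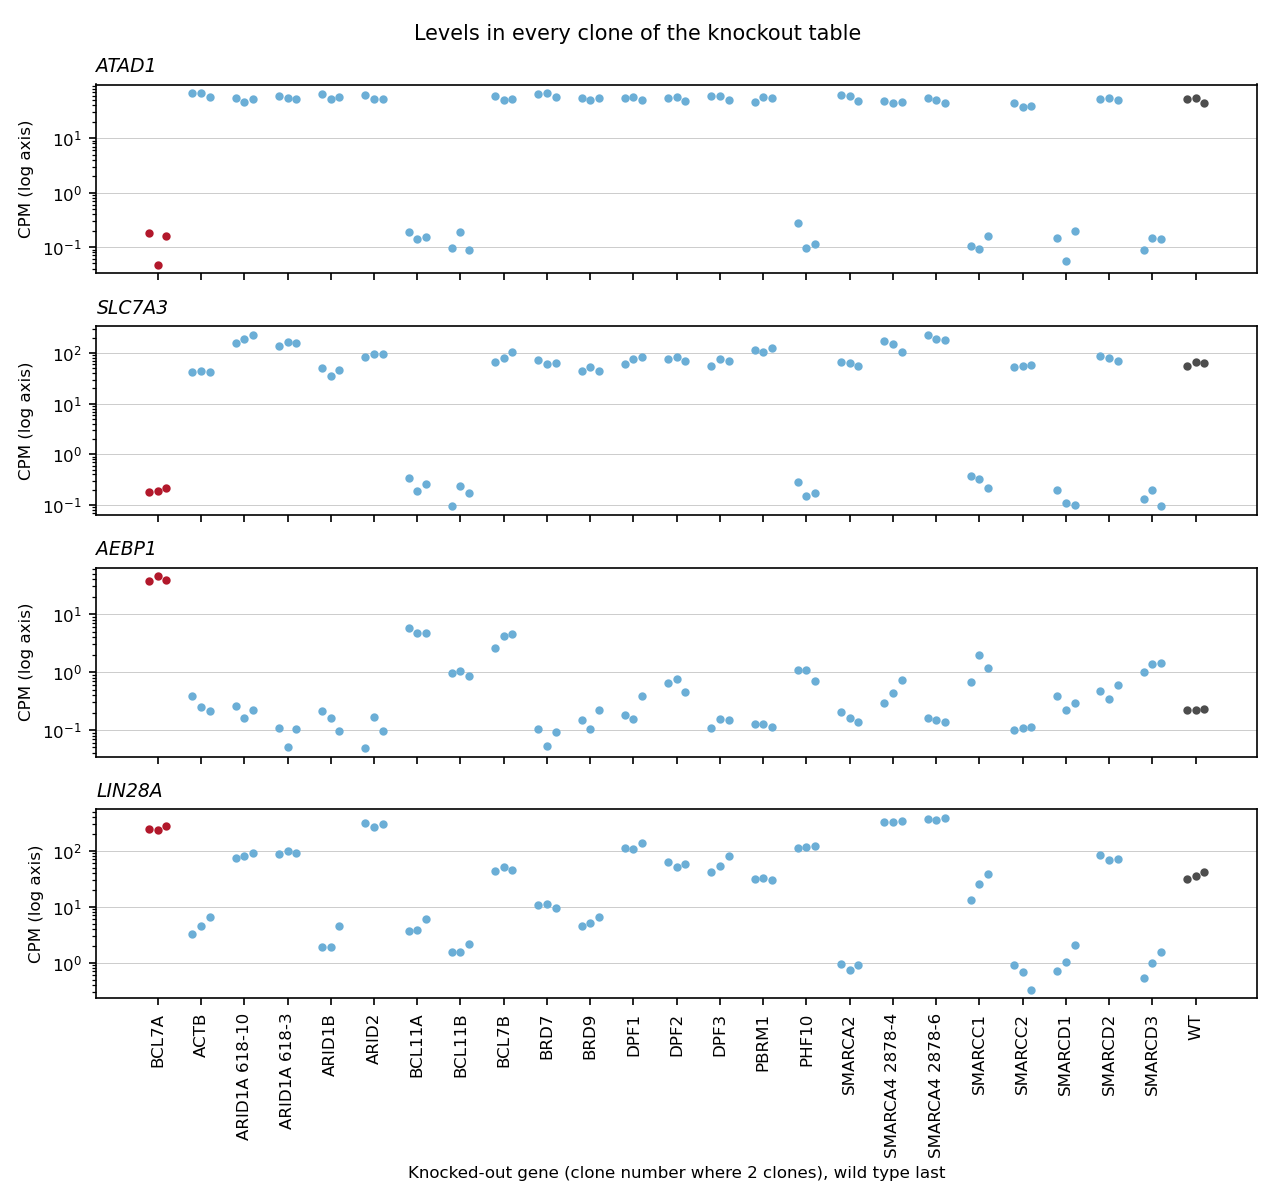
Level of ATAD1, SLC7A3, AEBP1 and LIN28A in each library of all 25 groups (CPM, log axes), with BCL7A knockout in red at the left, other knockouts in blue and wild type in grey at the right; points are libraries. ATAD1 and SLC7A3 fall into 7 groups under 1 CPM and 18 groups above 30 CPM, AEBP1 is above 30 CPM in BCL7A knockout libraries alone, and LIN28A spans 0.651 to 371.5 CPM in group means.

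Against the mean of the BCL11A and BCL11B knockouts, 544 genes were called (3.37%), 336 higher (2.08%) and 208 lower (1.29%) in the BCL7A knockout. Of the 368 genes higher than wild type, 153 (41.6%) were also higher in this direct test and 8 were lower. Of the 204 lower than wild type, 56 (27.5%) were also lower and 9 were higher. Against the mean of all 23 other knockout clones, 467 genes were called (2.89%), 329 higher (2.04%) and 138 lower (0.854%). Here 224 (60.9%) of the genes higher than wild type and 103 (50.5%) of those lower kept their direction and call. These contrasts share the BCL7A libraries with the comparison with wild type. Their p-values measure the spread between libraries within groups and leave out the spread between clones. Over all genes tested, each BCL7A library correlated most with the BCL11A knockout among other groups (r = 0.983 to 0.984), below its mean of 0.988 to 0.990 with its own group.

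**Figure D3:**
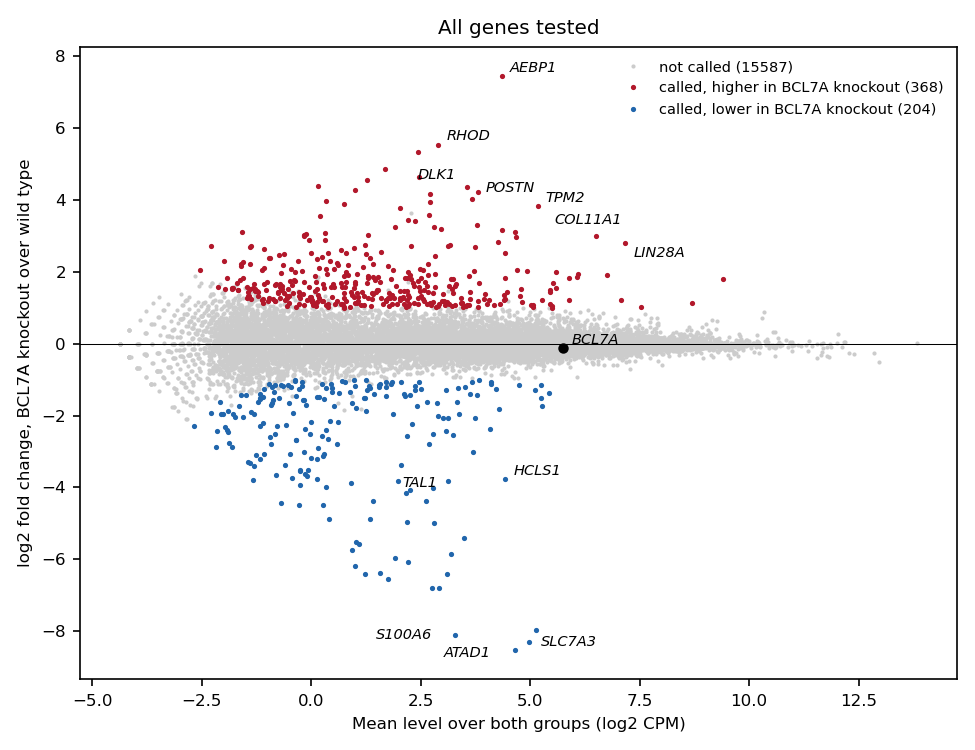
Each point is 1 of 16159 genes tested, with the mean level over both groups (log2 CPM) against the log2 fold change of BCL7A knockout over wild type; red and blue mark called genes and BCL7A is the black point. ATAD1, SLC7A3 and S100A6 lie near -8 and AEBP1 near 7, while BCL7A lies near 0.

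Genes with almost no mRNA in 1 of the groups led both directions. Promoters of the first such pairs with a window in the set used here (GRCh38.p14) are shown. They let base composition be read beside the values. That set held 14 of the 30 named genes, and AEBP1 and SLC7A3 were not in it. Each window runs from 250 bases before to 50 bases after the transcription start, on the gene's own strand, with every CG dinucleotide, the site of DNA methylation, in capitals. RHOD and GUCA1A were higher in the knockout, ATAD1 and S100A6 lower.
RHOD (chr11:67056597-67056896, plus strand): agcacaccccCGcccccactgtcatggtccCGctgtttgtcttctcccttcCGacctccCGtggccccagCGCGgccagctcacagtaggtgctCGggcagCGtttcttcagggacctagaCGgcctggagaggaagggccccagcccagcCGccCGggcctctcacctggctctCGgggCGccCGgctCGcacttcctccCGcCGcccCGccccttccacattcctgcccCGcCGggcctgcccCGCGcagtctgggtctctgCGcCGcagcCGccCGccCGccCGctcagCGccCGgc
GUCA1A (chr6:42173114-42173413, plus strand): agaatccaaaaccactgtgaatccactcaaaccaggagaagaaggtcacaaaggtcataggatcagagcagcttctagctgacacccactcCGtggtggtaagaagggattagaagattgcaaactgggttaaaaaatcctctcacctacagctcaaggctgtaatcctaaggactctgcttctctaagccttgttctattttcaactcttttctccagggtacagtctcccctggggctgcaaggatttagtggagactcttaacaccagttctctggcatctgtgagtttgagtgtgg
ATAD1 (chr10:87818177-87818476, minus strand): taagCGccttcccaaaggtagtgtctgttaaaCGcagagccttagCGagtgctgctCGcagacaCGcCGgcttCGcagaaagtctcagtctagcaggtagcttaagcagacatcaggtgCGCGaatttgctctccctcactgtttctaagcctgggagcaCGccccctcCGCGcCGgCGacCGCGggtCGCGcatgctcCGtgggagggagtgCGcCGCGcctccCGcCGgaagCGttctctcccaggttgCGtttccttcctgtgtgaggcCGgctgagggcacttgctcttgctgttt
S100A6 (chr1:153535942-153536241, minus strand): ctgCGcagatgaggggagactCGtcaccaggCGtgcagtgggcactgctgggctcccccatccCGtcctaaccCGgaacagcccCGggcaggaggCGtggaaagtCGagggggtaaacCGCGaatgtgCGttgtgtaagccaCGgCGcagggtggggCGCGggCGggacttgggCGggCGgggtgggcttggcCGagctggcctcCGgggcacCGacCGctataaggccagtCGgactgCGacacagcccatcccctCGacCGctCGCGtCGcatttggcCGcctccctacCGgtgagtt
The windows hold 30 CG dinucleotides in RHOD, 27 in ATAD1 and 31 in S100A6, against 1 in GUCA1A and a median of 14 over 35116 such windows. GGGCGG, the GC box, was found on either strand 7 times in RHOD and 3 times in S100A6 but not in ATAD1 or GUCA1A, and 45.0% of all windows hold it. TATAAA was found in none of the 4 windows, and in 11.5% of all. So CG-rich windows were among both the genes gained and those lost, and methylation was not measured. The counts were made on GRCh37, and the window coordinates are those of the RefSeq table.

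Genes higher in the BCL7A knockout were led by AEBP1, which encodes a carboxypeptidase-like protein secreted into the extracellular matrix. It stood at 38.0, 44.9 and 39.3 CPM in the knockout, against 0.226, 0.225 and 0.228 CPM in wild type (log2 fold change 7.45, SE 0.28, edgeR adjusted p = 1.1e-29). It was the gene with the largest rise over the other knockouts by the naming rule as well (log2 difference 6.87 to the mean of 23 clones, adjusted p = 3.08e-53 by edgeR). Every BCL7A library was above every library of the other 23 clones, among which BCL11A came closest with a mean of 5.04 CPM. Against BCL11A and BCL11B the difference was 4.20 on the log2 scale.

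The other matrix and surface genes at the top showed several patterns across clones. POSTN, the matricellular protein periostin, had 23.5, 25.7 and 30.3 CPM in the knockout, against 0.960, 1.67 and 1.55 CPM in wild type (log2 fold change 4.23). It was also higher against BCL11A and BCL11B (7.76), although the SMARCA4 knockouts had still more, up to a mean of 205.5 CPM. THY1, a GPI-anchored surface glycoprotein of fibroblasts and neurons, had 12.04, 13.004 and 12.22 CPM in the knockout and 0.791, 0.811 and 0.457 CPM in wild type (4.17). Of the other 23 clones the ACTB knockout alone was higher (94.6 CPM), and 22 were below in every library. COL9A1, a chain of cartilage collagen IX, had 11.8, 15.7 and 9.35 CPM in the knockout and 1.02, 0.721 and 0.685 CPM in wild type (3.93), the highest mean of all 25 groups. Its BCL7A libraries overlapped those of the DPF2 knockout, which had a mean of 9.10 CPM.

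RHOD, a small GTPase of endosome movement, differed in this respect. It stood at 13.9, 15.6 and 14.3 CPM in the knockout, against 0.395, 0.270 and 0.274 CPM in wild type (log2 fold change 5.54, edgeR adjusted p = 5.44e-33). Against BCL11A and BCL11B the difference was 0.13 (adjusted p = 0.552 by edgeR), and SMARCD3 and SMARCC1 knockouts had 15.2 and 14.95 CPM. GJA1, the gap junction protein connexin 43, likewise rose against wild type (4.63) but not against BCL11A and BCL11B (-0.43, adjusted p = 0.262). The neuronal kinesin KIF5A did the same (4.02 and 0.14). The remaining named genes with a rise were GUCA1A, CADPS2, DLK1, TPM2, CHI3L2, KCTD11, FAM26E and CYP1B1, with log2 fold changes of 3.40 to 5.32 against wild type. In all, 12 of the 15 named genes were also called higher against the mean of BCL11A and BCL11B, and 15 of 15 against the mean of the other clones. For 10 of the 12 the BCL7A libraries lay above those of both clones. GUCA1A, at a mean of 10.65 CPM in the BCL7A knockout, overlapped the BCL11A knockout at 9.66 CPM and was apart from the BCL11B knockout at 2.00 CPM. CHI3L2 likewise overlapped BCL11A (7.56 CPM in the BCL7A knockout, 5.65 CPM in BCL11A) and not BCL11B (2.08 CPM).

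**Figure D4:**
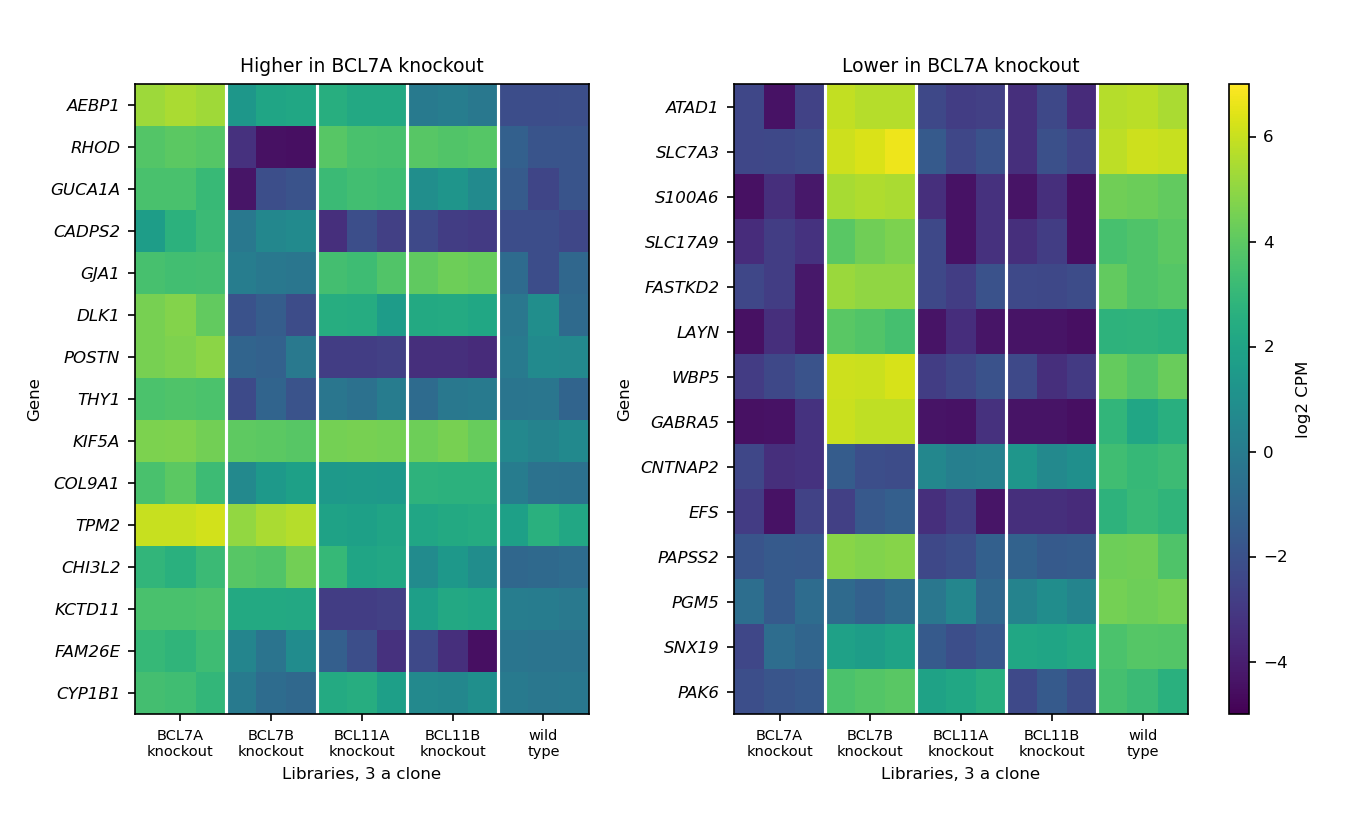
Level (log2 CPM, colour scale) of the 15 named genes higher and 14 of the 15 lower in the BCL7A knockout, in rows, for each of 3 libraries of the BCL7A, BCL7B, BCL11A and BCL11B knockouts and wild type, in columns. Most genes at left are brightest in BCL7A knockout, with RHOD, GJA1 and KIF5A as bright in BCL11A and BCL11B, and most genes at right are dark in BCL7A, BCL11A and BCL11B alike.

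Genes lower in the knockout were set against the same clones. S100A6, a small calcium-binding protein, had 1, 2 and 1 counts in the knockout, against 375, 439 and 385 in wild type, a ratio of 0.00333 (95% counting interval 0.000905 to 0.00854). The interval takes listed values of 1 as reads. Since 1 is the lowest value in the table and may stand for no read, the ratio and its lower bound are uncertain. SLC7A3 had 4 counts in each knockout library, against 993, 1502 and 1386 in wild type (log2 fold change -8.29, SE 0.26, edgeR adjusted p = 4.65e-34). FASTKD2, an RNA-binding protein of mitochondria, had 0.182, 0.142 and 0.053 CPM in the knockout and 17.5, 13.2 and 14.3 CPM in wild type (-6.80). None of these 3 differed detectably from BCL11A and BCL11B (adjusted p of 0.96, 0.943 and 0.599 by edgeR). For FASTKD2 the mean was under 1 CPM in 17 of the other 23 knockout clones, so a low value was common among clones and wild type was among the higher groups.

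Of the 15 named genes with a fall, 4 were called lower than the mean of BCL11A and BCL11B: CNTNAP2, PGM5, SNX19 and PAK6. For CNTNAP2 alone of these 4 the BCL7A libraries lay below those of both clones. SNX19 averaged 0.425 CPM in the BCL7A knockout, against 0.290 CPM in BCL11A and 4.47 CPM in BCL11B, so its call rests on BCL11B. PAK6 averaged 0.277 CPM in the BCL7A knockout, against 4.62 CPM in BCL11A and 0.248 CPM in BCL11B, so its call rests on BCL11A. PGM5 overlapped BCL11A (0.517 CPM in the BCL7A knockout, 0.936 CPM in BCL11A and 1.49 CPM in BCL11B). SNX19, a sorting nexin of the endosome membrane, had 0.182, 0.615 and 0.478 CPM in the knockout, against 12.2, 14.4 and 13.7 CPM in wild type (log2 fold change -4.98, SE 0.20, edgeR adjusted p = 1.11e-28). CNTNAP2, an adhesion protein of axons, had 0.182, 0.095 and 0.106 CPM in the knockout and 9.83, 8.25 and 9.41 CPM in wild type (-6.08), and its difference to BCL11A and BCL11B was -3.57. PAK6, a p21-activated kinase, fell by 4.97 and PGM5, a muscle-adhesion relative of phosphoglucomutase, by 5.40 on the log2 scale against wild type. The other named genes were SLC17A9, LAYN, WBP5, GABRA5 and EFS, whose ratios or folds rest on knockout libraries at 1 to 5 counts. WBP5, of the TCEAL family, fell by 6.41 on the log2 scale. All 15 were lower than the mean of the other 23 clones by the same call, beside 50.5% of all genes lower than wild type. That mean can rest on part of the clones. Of the 23, the number with a mean under 1 CPM ran from 5 for SNX19 to 17 for FASTKD2, with 15 for EFS and 12 for PAK6.

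**Figure D5:**
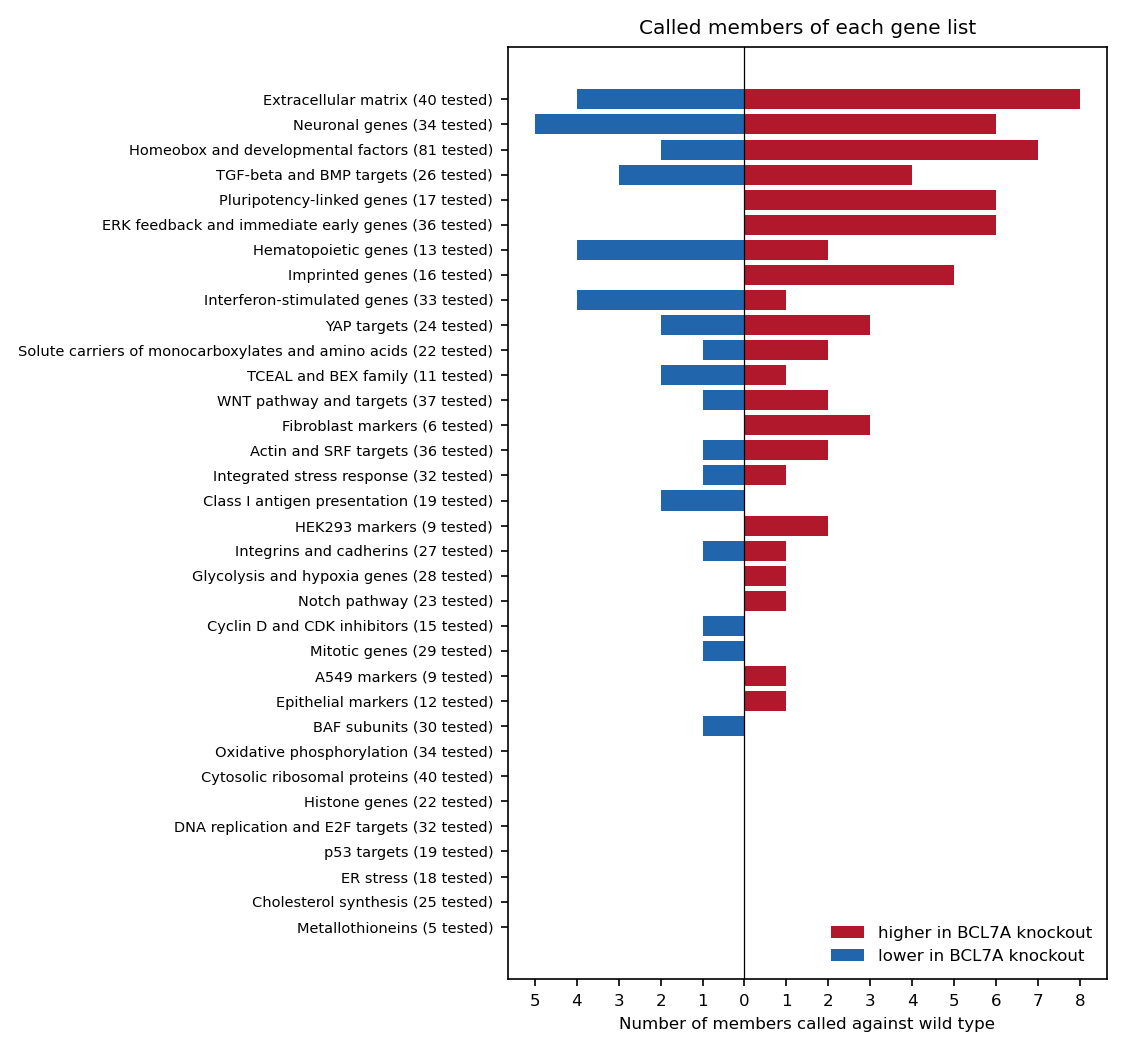
Bars give the number of members of each of 34 gene lists called higher (red, right) or lower (blue, left) in the BCL7A knockout than in wild type, with the number tested beside each name. Pluripotency-linked, ERK feedback and imprinted genes were called in 1 direction, matrix and neuronal genes in both, and 8 lists had no called member.

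Genes were next read by function, each list beside the 3.54% called over all genes tested and the median of -0.007. The background for unadjusted counts was 3182 of 16159 genes with an unadjusted p under 0.05 by edgeR, in either direction. Of 17 pluripotency-linked genes tested, 6 were higher, none was lower, and the list's median log2 fold change was 0.50. At an unadjusted p under 0.05 by edgeR 10 were higher and 0 lower, and DESeq2 and limma each made 5 calls. LIN28A, an RNA-binding protein that blocks let-7 maturation, had 242, 238 and 279 CPM in the knockout, against 31.1, 35.2 and 42.0 CPM in wild type (log2 fold change 2.81, SE 0.22, edgeR adjusted p = 2.92e-15). It was higher in ARID2 and SMARCA4 knockouts, and 20 of the other 23 clones were below BCL7A in every library. TDGF1, a co-receptor for NODAL, had 33.7, 33.2 and 34.5 CPM in the knockout and 3.95, 5.32 and 4.84 CPM in wild type (2.84), above every library of the other 23 clones. LEFTY2, a secreted NODAL inhibitor, had 5.27, 3.12 and 3.08 CPM in the knockout and 0.169, 0.180 and 0.228 CPM in wild type (4.26), again above all other clones. L1TD1, an RNA-binding protein of pluripotent cells, rose by 1.99. LEFTY1, a close relative of LEFTY2, was called too (1.55). Reads of 50 bases may not fully separate LEFTY1 from LEFTY2, so their calls are uncertain as separate results. Of these 6 calls, 5 were also made against BCL11A and BCL11B and 6 against the mean of the other clones.

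Among 36 ERK feedback and immediate early genes tested, 6 were higher and none was lower (median 0.15), and at an unadjusted p under 0.05 by edgeR 12 were higher and 0 lower. DESeq2 and limma each called 6. The PEA3-family factors ETV1, ETV5 and ETV4, which follow ERK activity in many cells, were 3 of them. ETV1 had 9.08, 8.65 and 8.93 CPM in the knockout, against 2.60, 2.07 and 2.79 CPM in wild type (log2 fold change 1.84, SE 0.29, edgeR adjusted p = 2.1e-06). ETV5 rose by 1.79 and ETV4 by 1.47, without overlap between groups. SPRY4, a feedback inhibitor of the pathway, had 0.954, 0.615 and 1.28 CPM in the knockout and 0.395, 0.361 and 0.183 CPM in wild type (1.59), a call that was lost when the fit held the 6 compared libraries alone. All 6 were called higher also against BCL7B, against BCL11A and BCL11B and against the mean of the other clones.

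Of 16 imprinted genes tested, 5 were higher and none was lower (median 0.46), and at an unadjusted p under 0.05 by edgeR 7 were higher and 3 lower. DESeq2 and limma each called 5. DLK1, a membrane protein of the Notch ligand type, had 23.6, 26.95 and 17.2 CPM in the knockout, against 0.847, 1.89 and 0.548 CPM in wild type (log2 fold change 4.34, SE 0.33, edgeR adjusted p = 2.61e-16). ARID1A clone 618-10 had a higher mean, 36.1 CPM. MEST, a hydrolase expressed in mesoderm, had 2.86, 3.50 and 3.14 CPM in the knockout and 0.169, 0.225 and 0.228 CPM in wild type (3.88), and all other 23 clones were below it in every library. RTL1, which lies in the same imprinted domain as DLK1, rose by 1.75, and PHLDA2 by 1.39 on the log2 scale. The RTL1 call was lost in the fit of the 6 libraries with a replicate block, and the PHLDA2 call in that fit both with and without the block. Of the 5 calls, 2 were also made against BCL11A and BCL11B. Allele of origin was not measured.

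Extracellular matrix genes moved in both directions: 8 of 40 tested were higher and 4 lower, with a median of 0.31. VCAN, the proteoglycan versican, had 34.9, 35.9 and 40.2 CPM in the knockout, against 5.03, 2.88 and 4.57 CPM in wild type (log2 fold change 3.16), above every library of the other 23 clones. COL11A1, a fibrillar collagen chain, had 160.1, 151.8 and 174.9 CPM in the knockout and 19.5, 19.2 and 22.5 CPM in wild type (2.99). It was slightly lower than in BCL11A and BCL11B (-0.27, edgeR adjusted p = 0.00244), under the fold threshold. MFAP2, a microfibril protein, had 0.227, 0.236 and 0.106 CPM in the knockout and 1.86, 1.40 and 1.55 CPM in wild type (-3.01). Of the 12 calls, 5 were also made against BCL11A and BCL11B.

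Genes of TGF-beta and BMP signalling split as well, with 4 of 26 higher and 3 lower (median 0.18). FST, which binds activin, had 3.72, 4.40 and 5.90 CPM in the knockout, against 0.113, 0.270 and 0.183 CPM in wild type (log2 fold change 4.55, edgeR adjusted p = 5.72e-18). Means were higher in the SMARCA4 knockouts (6.61 and 15.2 CPM) and the ARID1A knockouts (5.04 and 5.26 CPM) than in the BCL7A knockout (4.67 CPM). BMP2, a secreted ligand, had 0.182, 0.142 and 0.319 CPM in the knockout and 0.960, 1.80 and 1.32 CPM in wild type (-2.67). BMP7 was lower at 6.95, 7.85 and 7.71 CPM in the knockout, against 20.9, 19.6 and 20.1 CPM in wild type (-1.43). LTBP1, which stores latent TGF-beta in the matrix, rose by 1.88. The other higher genes were LEFTY2 and LEFTY1, which are counted in the pluripotency-linked list as well. Of the 7 calls, 4 were also made against BCL11A and BCL11B.

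Among 13 hematopoietic genes tested, 4 were lower and 2 higher (median -0.19). TAL1, a factor of blood stem cells and erythroid cells, had 0.954, 0.898 and 1.65 CPM in the knockout, against 20.3, 12.4 and 16.1 CPM in wild type (log2 fold change -3.81, SE 0.20, edgeR adjusted p = 4.55e-23). HCLS1, an actin-binding substrate of blood cell kinases, had 3.77, 2.46 and 2.55 CPM in the knockout and 44.1, 39.3 and 36.3 CPM in wild type (-3.76). Both were also called lower than the mean of BCL11A and BCL11B (-1.47 and -3.11), although TAL1 overlapped BCL11A (1.17 CPM in the BCL7A knockout, 2.07 CPM in BCL11A). Of the list's 6 calls, 3 were made in that test. LYL1, a relative of TAL1, fell by 1.69, while FLI1, an ETS factor, was higher at 2.27, 2.22 and 2.23 CPM in the knockout and 0.395, 0.406 and 0.365 CPM in wild type (2.51). Summed over the list, knockout libraries held 84.9 to 89.4 CPM and wild-type libraries 148.7 to 172.5 CPM. GATA1, SPI1, CD34 and PTPRC did not pass the filter on low counts, so the blood markers that remain in HAP1 are few.

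Lists of other cell types were read to check the cultures. Of 6 fibroblast markers tested, 3 were higher (POSTN, THY1 and COL3A1) and none lower, with summed levels of 153.3 to 177.8 CPM in knockout libraries and 104.8 to 127.4 CPM in wild type. COL1A2, DCN, LUM and FAP did not pass the filter. Of 12 epithelial markers 1 was higher, KRT8, at 68.4, 69.98 and 91.1 CPM in the knockout, against 23.4, 19.8 and 14.8 CPM in wild type (log2 fold change 1.98), and CDH1 did not pass the filter. Of 9 markers of A549, a lung line grown in the same study, 1 was higher (AKR1C3, 2.52), and of 9 markers of HEK293 cells 2 were (PRAME 1.33 and EYA1 1.27). Their summed levels were 4.97 to 7.71 and 140.8 to 151.3 CPM in knockout libraries, against 2.99 to 3.65 and 114.8 to 127.4 CPM in wild type. The 3 fibroblast calls and the epithelial call were also made against BCL11A and BCL11B. The part of these markers in the other results was not tested.

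Neuronal genes were called in both directions, 6 of 34 higher and 5 lower (median -0.14), and 3 of these 11 calls were also made against BCL11A and BCL11B. GABRA5, a GABA receptor subunit, had 1, 1 and 2 counts in the knockout, a ratio of 0.0111 to wild type (95% counting interval 0.00302 to 0.0288). LRRTM2, a synaptic adhesion protein, had 0.409, 0.662 and 0.744 CPM in the knockout and at most 0.0913 CPM in wild type, a ratio of 9.22 (3.31 to 35.6). Both ratios and their intervals take the lowest listed value as a read, so they are uncertain on the near-zero side. In the list of 81 homeobox and developmental factors, 7 were higher and 2 lower (median -0.05), of which 2 were also called against BCL11A and BCL11B. HOXC9, FOXP2 and HOXB9 rose by 2.34, 1.84 and 1.61, while PRRX1, a mesenchymal factor, stood at a ratio of 0.0407 (0.0109 to 0.108).

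Of 33 interferon-stimulated genes tested, 4 were lower and 1 higher (median -0.07). OAS2, which makes the activator of RNase L, had 0.273, 0.142 and 0.159 CPM in the knockout, against 2.32, 1.35 and 1.74 CPM in wild type (log2 fold change -3.17). Its relative OAS3 had 5.54, 6.29 and 6.64 CPM in the knockout and 13.2, 15.2 and 14.6 CPM in wild type (-1.22), and the RNA sensor IFIH1 fell by 1.13. IFITM1 was called higher (1.13, edgeR adjusted p = 0.019) although its groups overlapped, and the IFIH1 and IFITM1 calls were lost in the fit of the 6 libraries alone. The IFIH1 call was also lost without knockout replicate 3, and the IFITM1 call without knockout replicate 1 or 2 and without wild-type replicate 2 or 3. Among 19 genes of class I antigen presentation 2 were lower (median -0.12): PSMB8, an immunoproteasome subunit, was at the lowest value in all 3 knockout libraries, against 0.508, 0.406 and 0.274 CPM in wild type, and NLRC5, the activator of class I genes, fell by 1.38, a call lost in the fit of the 6 libraries with a replicate block. In the test against BCL11A and BCL11B, 2 of the 5 interferon calls and 1 of the 2 antigen presentation calls were made too.

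The actin and SRF list had 2 of 36 higher and 1 lower (median 0.11). TPM2, the muscle and fibroblast beta-tropomyosin, had 64.5, 64.7 and 72.5 CPM in the knockout, against 3.56, 6.04 and 4.52 CPM in wild type (log2 fold change 3.82), and CNN1, a calponin, rose by 1.73, a call lost in the fit of the 6 libraries with a replicate block. TPM2 had still higher means in the ACTB knockout (215.4 CPM) and the SMARCA4 knockouts (150.1 and 143.0 CPM). ACTG2, smooth muscle gamma-actin, was lower at 18.8, 20.9 and 20.04 CPM in the knockout, against 54.1, 54.7 and 60.4 CPM in wild type (-1.50). Of 24 YAP targets 3 were higher and 2 lower (median 0.03), with ANKRD1 (1.98) and MYOF (1.80) up and DLC1 (-2.57) and NUAK2 (-2.06) down. NUAK2 was higher, not lower, against BCL11A and BCL11B (2.58, edgeR adjusted p = 1.1e-18). Of 27 integrins and cadherins 1 was higher (ITGB3, 1.98) and 1 lower (PCDH17, -1.21), and both calls were lost in the fit of the 6 libraries alone, that of PCDH17 also without wild-type replicate 1. Of these calls, 2 of the 3 actin calls, 2 of the 5 YAP calls and 1 of the 2 integrin and cadherin calls were also made against BCL11A and BCL11B.

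In the WNT list 2 of 37 genes were higher and 1 lower (median 0.12). SFRP1, a secreted WNT antagonist, had 70.9, 74.0 and 70.2 CPM in the knockout, against 24.2, 21.3 and 27.9 CPM in wild type (log2 fold change 1.55), DKK3 rose by 1.57, and FZD10, a receptor, was at the lowest value in all 3 knockout libraries. With the floor of 3 counts per library its log2 difference was -3.04 or lower. In the TCEAL and BEX family 1 of 11 was higher (TCEAL2, 1.94) and 2 lower (WBP5, and TCEAL8 at -4.75 or lower by the same floor, median 0.08). Among solute carriers of monocarboxylates and amino acids, SLC16A7 (2.48) and SLC16A12 (2.39) were higher and SLC7A3 was lower, of 22 tested (median -0.02). Of 23 Notch genes DTX1 was higher (1.10), of 28 glycolysis and hypoxia genes the glucose transporter SLC2A3 was (1.25), and of 15 cyclin D genes and CDK inhibitors CCND2 was lower, at 1.18, 1.37 and 1.97 CPM in the knockout and 6.33, 4.69 and 6.49 CPM in wild type (-1.96). The medians of these 3 lists were 0.18, -0.004 and -0.09. The DTX1 call was lost without replicate 1 of either group, and without wild-type replicate 1 the cyclin list had 2 calls. The DKK3 and DTX1 calls were lost in the fit of the 6 libraries with a replicate block.

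Core cell functions gave few or no calls. No member was called among 40 cytosolic ribosomal proteins, 34 oxidative phosphorylation genes, 32 DNA replication and E2F targets, 25 cholesterol synthesis genes, 22 histone genes, 19 p53 targets, 18 ER stress genes and 5 metallothioneins, whose medians lay between -0.16 and 0.11. Over these 8 lists, 3 of 195 members were higher and 16 lower at an unadjusted p under 0.05 by edgeR, DESeq2 and limma also made 0 calls, and without knockout replicate 3 cholesterol synthesis had 1. Of 32 genes of the integrated stress response, CHAC1 was higher (1.05) and SLC7A3 lower (median 0.13), and of 29 mitotic genes UBE2C was lower (-1.20, edgeR adjusted p = 0.0498, median -0.03), a call that 12 of the alternatives did not keep. The CHAC1 call was lost without knockout replicate 2 and without wild-type replicate 2.

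In 7 of the lists no call was shared with the test against BCL11A and BCL11B: WNT, TCEAL and BEX (3 calls each), HEK293 markers and the integrated stress response (2 each), and A549 markers, mitotic genes and Notch (1 each). Of these 13 calls, edgeR and DESeq2 each made 0 in that test, and 1 had the same direction at an unadjusted p under 0.05 by edgeR. Of the solute carrier calls 1 of 3 was made there, and the SLC2A3 and CCND2 calls were both made. By DESeq2 in that test, SLC16A7 and the neuronal gene DLG2 were called lower and LYL1 higher, each opposite to its call against wild type.

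The comparison with the paralog knockout had the most calls of the 4 made with the BCL7A libraries. Against BCL7B, 1158 genes were called (7.17%), 695 higher (4.3%) and 463 lower (2.87%) in the BCL7A knockout. The BCL7B knockout itself had 989 calls against wild type (6.12%). In the direct test, 315 (55.1%) of the 572 BCL7A calls against wild type were made in the same direction and 24 in the other. BCL7B itself was higher in the BCL7A knockout (log2 difference 1.05, edgeR adjusted p = 1.13e-06), at 14.8, 11.8 and 13.4 CPM in the BCL7A knockout, against 7.41, 5.99 and 6.02 CPM in the BCL7B knockout. BCL7A mRNA did not differ detectably between the 2 knockouts (0.03, adjusted p = 0.876). The genes furthest apart were COL11A1 (162.3 ± 11.7 CPM in the BCL7A knockout and 0.185 ± 0.043 CPM in the BCL7B knockout, log2 difference 9.73) and GABRA5 (0.066 ± 0.035 CPM in the BCL7A knockout and 60.3 ± 4.2 CPM in the BCL7B knockout, -9.74, all SD with n = 3). BST2, the antiviral membrane protein tetherin, averaged 206.0 CPM in the BCL7A knockout, 1.62 CPM in the BCL7B knockout and 211.1 CPM in wild type, so here the BCL7B clone stood apart. GALNT5, a glycosyltransferase, averaged 48.6 CPM in the BCL7A knockout and 0.461 CPM in the BCL7B knockout (6.74), and ZNF256 averaged 9.80 CPM in the BCL7A knockout and 0.108 CPM in the BCL7B knockout (6.42). S100A6, SLC7A3, ATAD1 and WBP5 completed the 5 lowest, between -9.31 and -8.47, all near zero in the BCL7A knockout. ATAD1 mRNA was present in the BCL7B knockout, so here too changes that follow the BCL7 gene and those that follow the losses above cannot be told apart.

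Against BCL11A and BCL11B the top genes were POSTN, LIN28A, FAM26E, FCGRT and CADPS2. LIN28A averaged 252.7 CPM in the BCL7A knockout, against 3.14 CPM over both references (log2 difference 6.48, edgeR adjusted p = 3.99e-32). FCGRT, the neonatal Fc receptor, averaged 7.59 CPM in the BCL7A knockout and 0.148 CPM in the references (5.62), and its wild-type level was 2.01 CPM. On the lower side stood NLGN4X, HCLS1, FRMD4A, NPTX2 and BMP7, with log2 differences of -5.26 to -2.83. NLGN4X, a synaptic adhesion protein, averaged 0.143 CPM in the BCL7A knockout and 0.117 CPM in wild type (adjusted p = 0.856 between them), so it differed through the references, whose libraries lay between 1.48 and 24.0 CPM.

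Against the mean of all other knockouts, 10 genes met the naming rule with every BCL7A library above every library of the other 23 clones, and none met it in the lower direction. The first 5 were AEBP1, ANGPTL2, FAM26E, VCAN and ARHGAP6. ANGPTL2, a secreted angiopoietin-like protein, averaged 23.3 ± 2.2 CPM in the BCL7A knockout (SD, n = 3) and 2.31 CPM over the other clones, the highest of which, PHF10, had a mean of 11.1 CPM (log2 difference 4.74, edgeR adjusted p = 2.52e-39). FAM26E, a calcium homeostasis modulator family member, averaged 8.43 CPM in the BCL7A knockout and 0.984 CPM over the other clones (4.16). ARHGAP6, a GTPase-activating protein, averaged 10.1 CPM in the BCL7A knockout, against 2.04 CPM over the other clones and 2.69 CPM in wild type (3.94 and 1.90). Against BCL11A and BCL11B, ANGPTL2, FAM26E and VCAN were also called higher (4.09, 5.65 and 2.31), while ARHGAP6 differed by 0.94, under the fold threshold.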

How the data were processed

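Poly(A) RNA was read as stranded 50-base single reads, per the labels' protocols. The authors deposited whole-number gene counts, handled like estimated counts since the counting tool is not given in the sources used here, and a quantile-normalized log2 TPM table. Trimmomatic, Bowtie, Picard, DESeq2 and GRCh37 are named in the submitters' processing notes. In total, 8 columns matched no single sample and were not used, and the double-loss table was not used. Some results are not reported here.

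All 75 libraries of the knockout table (25 groups) were fitted together with edgeR 4.0.16 in R 4.3.3 (TMM, filterByExpr, robust quasi-likelihood test). The main fit was also run on simulated data drawn with its own estimates of spread. Those data held planted changes but no other differences between clones or batches, so the run checks the code and not the design. SE is the fold change divided by the root of F. Alternatives used DESeq2 1.42.0 and limma 3.58.1, the latter on the deposited log2 TPM. Counting intervals and floors cover counting error only. The intervals take a listed value of 1 as 1 read, although 1 is the lowest value in every library and may stand for none. Named genes were called, showed no overlap, averaged 5 CPM or more in 1 of the groups, and were the first 15 each way against wild type and 5 each way in direct contrasts, plus BCL7 genes, called BAF subunits and up to 4 called members of each list. The comparison and lists were chosen with earlier results of these data known. Same-numbered BCL7A and BCL7B libraries deviated together (r = 0.185, 0.229 and 0.364). For BCL11A r was 0.228, -0.014 and 0.286, and for BCL11B 0.227, 0.016 and 0.242. The labels do not say what the numbers mark. The main fit did not pair libraries, and a replicate block was run only as an alternative.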

Additional observations from a re-analysis of the deposited data

Results flagged for a closer look

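Taken here were genes called in opposite directions in the BCL7A and BCL7B knockouts against wild type, and called between the 2 clones by edgeR. They numbered 84 of 16159 genes tested, of which 52 reached 5 CPM in 1 group (22 higher and 30 lower in the BCL7A knockout). The 6 with the widest gap are given. GABRA5 differed by -9.735 on the log2 scale (-6.38 in BCL7A and 3.36 in BCL7B, each against wild type). COL11A1 differed by 9.729 (2.99 and -6.74), S100A6 by -9.308 (-8.11 and 1.201) and WBP5 by -8.468 (-6.41 and 2.06). HRASLS5, a phospholipase-like enzyme, differed by -8.173 (-4.89 and 3.28), and FASTKD2 by -7.959 (-6.80 and 1.16). Both effects share the wild-type libraries. The selection by opposite calls itself puts the wild-type level between those of the 2 clones and sets the clones apart, so neither is a separate result. Against BCL11A and BCL11B none of the 6 passed the call rule in the BCL7A clone.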

How the results depend on the processing

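With adjusted p alone and no fold threshold, 1474 genes passed against wild type (923 higher, 551 lower), 1883 and 1837 against BCL7B, 1059 and 880 against BCL11A and BCL11B, and 1121 and 604 against the mean of the other clones. Leaving out each replicate gave 495 to 576 calls against wild type, 305 to 388 higher and 186 to 200 lower. Other scalings, filters, tools and thresholds gave 445 to 582. Same-numbered BCL7A and wild-type libraries did not deviate together (r = -0.014, -0.083 and -0.279), while differently numbered pairs ran from -0.178 to 0.226. Deviations were taken within groups of 3, so these values depend on each other. Whether the libraries share a batch was not tested. A replicate block over all libraries gave 582 calls, and one over the 6 compared libraries 366 (229 higher). For BCL7B the block changed no count by over 1.5 times. Of 116 called gene results, 16 lost the call under at least 1 alternative, and no called gene changed sign. The log2 fold change of BCL7B, which was not called, ranged from -0.1457 to 0.01377 with each replicate left out (0.0003188 without WT replicate 2), and that of BCL7C from -0.03784 to 0.04728 (-0.004141 without BCL7A replicate 2, -0.01604 without BCL7A replicate 3, and -0.009206 with limma). Leaving out single libraries of the 23 other clones was not run. Of the 204 genes called lower, 43 had at most 3 counts in every knockout library, which limits how low their level can be stated.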

Other observations

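Outside the lists, 3 neighbouring genes of chromosome 9 (C9orf173, NELFB and TOR4A) were all called higher in the BCL7A knockout than in wild type, a run picked after the values were seen, with a median log2 fold change of 1.07. NELFB, a subunit of the negative elongation factor, had 244, 252 and 246 CPM in the knockout, against 116, 126 and 126 CPM in wild type. TOR4A, a torsin-family ATPase, had 4.13, 4.35 and 4.36 CPM in the knockout, against 1.58, 1.76 and 1.19 CPM in wild type. Near BCL7A itself, HPD, an enzyme of tyrosine breakdown, was the 1 called gene of 20 (log2 fold change 1.94), beside 3.54% called over all genes tested. SNCG, which encodes gamma-synuclein, was higher (3.05) in the knockout.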
